A study of Arabidopsis thaliana with 2 samples.

Results

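The cysteine-rich receptor-like kinases (CRKs) of Arabidopsis thaliana were followed in 2 RNA-seq libraries of whole seedlings. The 34 genes were given as a list of loci by family membership, with no cut on their counts, although earlier results of these data were known when the family was picked. They are 34 of 23519 nuclear loci with reads. A tandem cluster on chromosome 4, from CRK5 (AT4G23130) to CRK24 (AT4G23320), holds 19 of them, and the other 15 are dispersed. One library came from seedlings labelled FMO5-OE T1, read as overexpression of the flavin-containing monooxygenase FMO GS-OX5 (AT1G12140), and the other from wild-type seedlings. Both were of the Col-0 accession, 12 days old, grown at 20 °C on plates of 0.5X GM in long days, lit at 90 µmol m-2 s-1, and left untreated. The sources used here do not give the promoter behind the transgene, whether plants were pooled, or what T1 stands for. With 1 library for each genotype, the differences below have no replicate check. No test between genotypes was possible, and genotype and seedling batch cannot be told apart.

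CRKs are plasma membrane proteins of plants with an extracellular part, a single membrane span and a serine/threonine kinase domain inside the cell. The extracellular part carries DUF26 domains, each marked by cysteines in a fixed spacing, and the family is known for roles in pathogen defence, cell death and responses to reactive oxygen species. Many CRK transcripts are known to be induced by pathogens, salicylic acid or ozone.

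The DUF26 signature is shown because it defines the family. In the coding sequences of TAIR10.1, cysteine codons (TGT or TGC) with 8 codons and then 2 codons between neighbouring cysteines were searched in frame. The pattern occurred 2 times in 30 of the 34 genes, 3 times in CRK23 and 1 time each in CRK24 and CRK29. It occurred 0 times in CRK45 (also named ARCK1), whose annotated coding sequence has 353 codons. The annotated coding sequence has 508 codons in CRK24 and 555 in CRK29. The model of CRK29 searched here has 1814 bases, against 2220 in the deposited files, so its count may miss an occurrence. The first occurrence in 6 genes on which the results turn reads as follows, with the cysteine codons in capitals:
CRK4: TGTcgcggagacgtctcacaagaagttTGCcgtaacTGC
CRK10: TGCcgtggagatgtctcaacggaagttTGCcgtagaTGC
CRK2: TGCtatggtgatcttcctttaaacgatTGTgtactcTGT
CRK3: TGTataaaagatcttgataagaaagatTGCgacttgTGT
CRK22: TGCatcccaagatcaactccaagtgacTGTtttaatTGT
CRK42: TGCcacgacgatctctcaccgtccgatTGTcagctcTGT
The pattern begins at codon 89 in CRK4 and at codon 96 in CRK10. Whole coding sequences were most alike between CRK6 and CRK8 (87.5% of alignment columns identical) and between CRK19 and CRK20 (87.3%). CRK4 was closest to CRK19 (74.7%), although CRK4 lies on another chromosome than the cluster, and CRK10 was closest to CRK8 (76.5%).

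The libraries held 12.21 M counted reads for FMO5-OE and 11.56 M for Col-0. Levels are given as CPM, counts scaled to the nuclear total of each library and then scaled between the libraries, so that 5 CPM stood for 61.6 reads in FMO5-OE and 54.6 in Col-0. FMO GS-OX5 itself had 1379 reads in FMO5-OE, against 28 in Col-0, 43.7-fold higher in CPM, summed over 2 models. On the model with most reads, they covered 8.15% in FMO5-OE and 6.48% in Col-0. The count on that model thus comes from a small part of it. Shoot and root markers were above 5 CPM, 3 of 3 in each list, and the flower markers AP1 and AG had 0 reads in FMO5-OE and 1 read each in Col-0. The summed level of the shoot markers was 9446 CPM in FMO5-OE and 10787 CPM in Col-0, and that of the root markers 6030 CPM in FMO5-OE and 5553 CPM in Col-0. Most of the root sum was PYK10, with 5950 CPM in FMO5-OE and 5466 CPM in Col-0. The other root markers were CASP1, 0.862-fold (0.781 to 0.951), and EXPA7, 1.24-fold (0.994 to 1.56), so the root list had no common direction. The part of the marker differences in the CRK values was not tested. In whole seedlings, more cells of a type and more RNA per cell cannot be told apart.

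Of the CRK genes, CRK4 and CRK10 were far enough apart between the libraries to be counted, both higher in FMO5-OE. The limit for counting a gene as 2-fold apart was a log2 ratio of CPM + 1 (FMO5-OE over Col-0) of 1 in either direction, with 5 CPM or more in at least 1 library. Of the 16 CRK genes at 5 CPM or more, 2 were counted as higher and 0 as lower. Of these 16, CRK4 and CRK21 reached 5 CPM only in FMO5-OE, where they are higher, so the counts over the 16 genes are a description and support no direction. Over all 13106 nuclear loci at that level, the share counted as higher was 0.748% and the share counted as lower 0.343%. That is 98 higher and 45 lower loci, so that 68.5% of the counted loci were higher, while CPM by total count gave 136 and 31, or 81.4% higher. The log2 ratio lay above 0 in 13 of the 16 genes, or 81.2%, against 48% of all loci at 5 CPM or more. The fold in CPM had an exact 95% interval, which covers counting error only, above 1 in 6 of the 16 and below 1 in 2. That is 37.5% and 12.5% of them, beside 17.4% and 20.9% of all loci. Of the 34 genes 23 reached 1 CPM, with a median log2 ratio of 0.23, against -0.0036 over the 18162 nuclear loci at 1 CPM or more, 49.5% of which lay above 0. Of the 23, 2 reached 1 CPM only in FMO5-OE and 1 only in Col-0. With no minimum level the median of the 34 genes was 0.10.

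**Figure D1:**
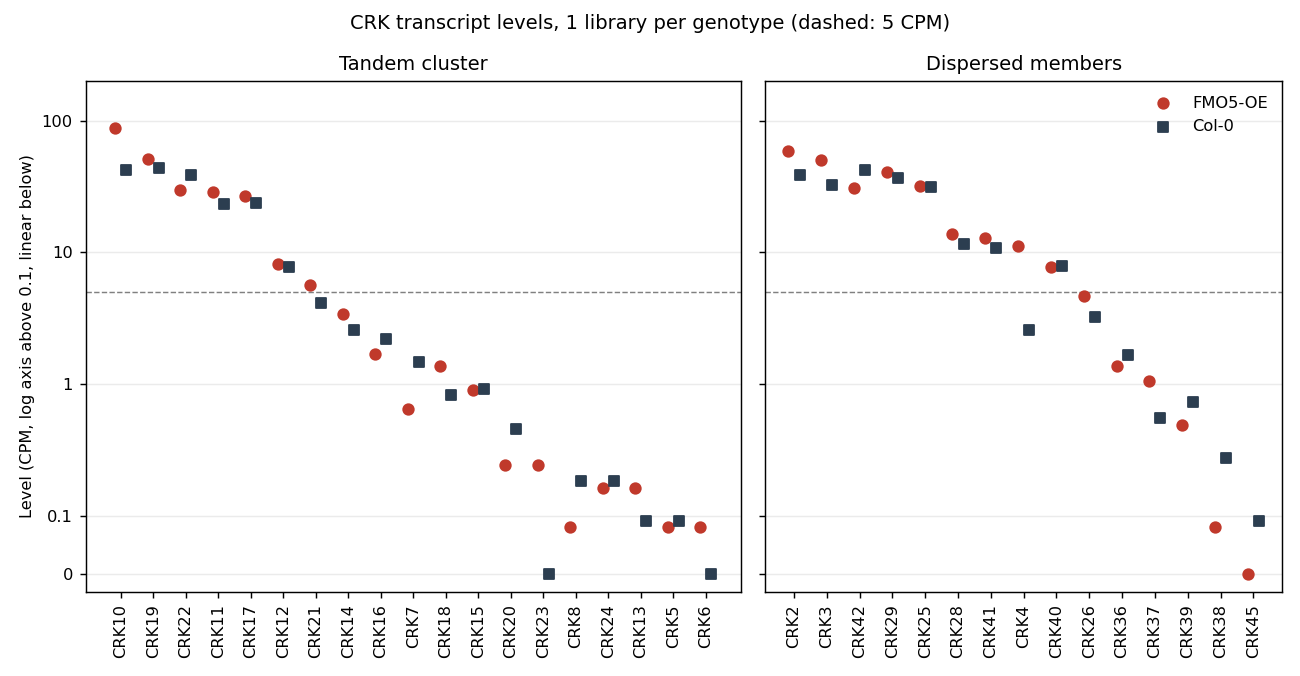
Level in CPM of each of the 34 CRK genes (vertical axis, logarithmic above 0.1 CPM) in the FMO5-OE library (red circles) and the Col-0 library (dark squares), for the tandem cluster and the dispersed genes. The 16 genes above the dashed line reached 5 CPM, and CRK4 and CRK10 show the widest gaps among them.

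CRK4 (AT3G45860), whose induced expression is known to trigger cell death resembling the hypersensitive response, showed the largest fold. It had 138 reads in FMO5-OE and 28 in Col-0. These gave 11.2 CPM in FMO5-OE and 2.56 CPM in Col-0, so that CRK4 was 4.37-fold higher (2.89 to 6.81), with log2 1.78. The reads covered 91.0% of its transcript model in FMO5-OE and 50.2% in Col-0, close to the 96.4% in FMO5-OE and 49.1% in Col-0 that the same reads would cover if spread evenly. CRK4 has 1 annotated model and shares no stretch of 49 bases, the length that 1 read covers in these files, with another transcript. It lies alone on chromosome 3 at 16863088 to 16866261, on the minus strand of TAIR10.1.

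CRK10 (AT4G23180), a cluster member known to be induced by pathogens and salicylic acid, was the most abundant CRK in FMO5-OE. It had 1086 reads in FMO5-OE and 465 in Col-0. These gave 88.1 CPM in FMO5-OE and 42.6 CPM in Col-0, so that CRK10 was 2.07-fold higher (1.86 to 2.31), with log2 1.03, just past the limit for counting. Its reads covered 98.5% of the model in FMO5-OE and 96.4% in Col-0, and 0.395% of its 49-base stretches occur in another transcript. The gene lies on chromosome 4 at 12137995 to 12140930, on the plus strand, and its end overlaps that of CRK11 on the opposite strand by 32 bases.

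The next in order were CRK3 (AT1G70530) and CRK2 (AT1G70520), neighbours on chromosome 1 with 762 bases between them. CRK2 is known to phosphorylate the NADPH oxidase RBOHD, which makes reactive oxygen species in immunity. CRK2 had 720 reads in FMO5-OE and 424 in Col-0, or 58.4 CPM in FMO5-OE and 38.8 CPM in Col-0, 1.51-fold higher in FMO5-OE (1.33 to 1.70). CRK3 had 616 reads in FMO5-OE and 356 in Col-0, or 49.97 CPM in FMO5-OE and 32.6 CPM in Col-0, 1.53-fold higher (1.34 to 1.75). The counting intervals of both lay above 1 and below 2. RBOHD itself had 1738 reads in FMO5-OE and 995 in Col-0, 1.55-fold higher (1.43 to 1.68). Stretches of 49 bases that occur in another transcript made up 0% of CRK2 and of CRK3.

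Of the other genes at 5 CPM or more, CRK11 and CRK19 had intervals above 1. CRK11, a cluster gene also known to be pathogen-induced, had 357 reads in FMO5-OE and 256 in Col-0, 1.24-fold higher (1.05 to 1.46). CRK19, like CRK4 known to trigger cell death when induced, had 636 reads in FMO5-OE and 477 in Col-0, 1.18-fold higher (1.05 to 1.33). CRK10 and its neighbour CRK11 thus had counting intervals that did not overlap.

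The folds of 8 genes could not be told from 1 by counting alone. CRK21 had 5.68 CPM in FMO5-OE and 4.12 CPM in Col-0, 1.38-fold (0.935 to 2.05). CRK41 had 12.8 CPM in FMO5-OE and 10.8 CPM in Col-0, 1.19-fold (0.929 to 1.52). CRK28, known to associate with the immune co-receptor BAK1, had 13.7 CPM in FMO5-OE and 11.6 CPM in Col-0, 1.18-fold (0.932 to 1.497). All 3 ratios were above 1, with intervals that reach below it. CRK29, which overlaps CRK28 on the same strand by 470 bases, had 40.9 CPM in FMO5-OE and 36.4 CPM in Col-0, 1.12-fold (0.982 to 1.28). CRK17, annotated as EMB1290, had 26.6 CPM in FMO5-OE and 23.5 CPM in Col-0, 1.13-fold (0.958 to 1.34). CRK12 had 8.11 CPM in FMO5-OE and 7.69 CPM in Col-0, 1.06-fold (0.782 to 1.43). These 3 ratios lay closer to 1. CRK25 had 31.6 CPM in both libraries, with 390 reads in FMO5-OE and 345 in Col-0, 1.002-fold (0.865 to 1.16). CRK40 had 7.71 CPM in FMO5-OE and 7.87 CPM in Col-0, 0.979-fold (0.724 to 1.33), and its ratio was above 1 with CPM by total count. All 8 intervals but that of CRK21 leave out a 2-fold difference in either direction.

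CRK22 (AT4G23300) of the cluster and CRK42 (AT5G40380) on chromosome 5 had intervals below 1. CRK22 had 367 reads in FMO5-OE and 426 in Col-0, or 29.8 CPM in FMO5-OE and 38.98 CPM in Col-0, 1.31-fold lower in FMO5-OE (1.14 to 1.51). CRK42 had 382 reads in FMO5-OE and 462 in Col-0, or 31.0 CPM in FMO5-OE and 42.3 CPM in Col-0, 1.36-fold lower (1.19 to 1.57). Both are among the more abundant genes of the family.

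**Figure D2:**
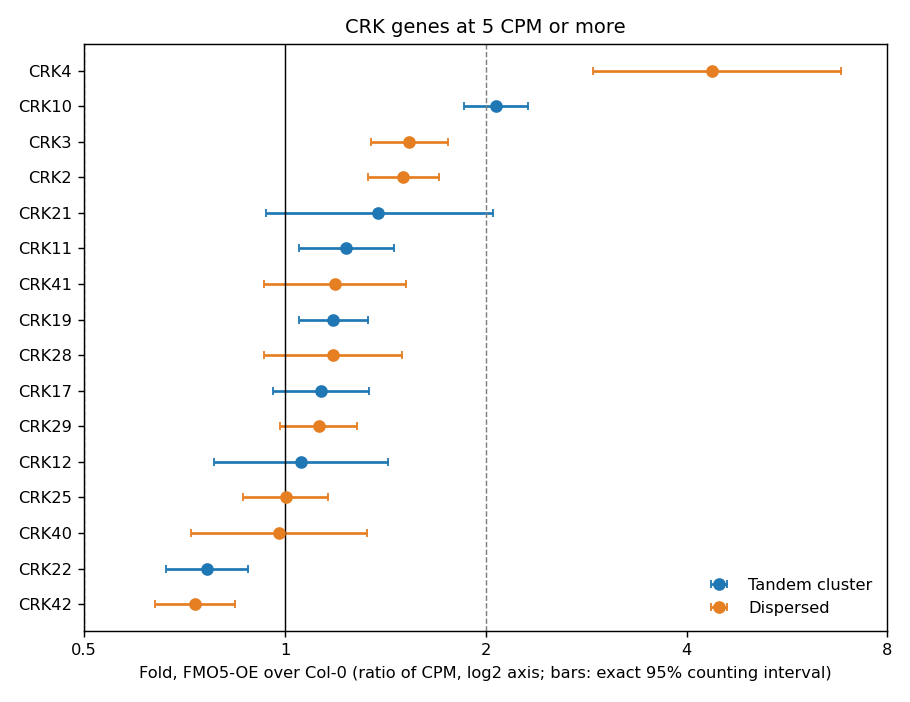
Fold of FMO5-OE over Col-0 (horizontal axis, ratio of CPM on a log2 scale) with its exact 95% counting interval for the 16 CRK genes at 5 CPM or more, cluster genes in blue and dispersed genes in orange. The intervals of 6 genes lie above 1, those of CRK22 and CRK42 lie below 1, and only CRK4 lies past 2 with its whole interval.

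Per length of transcript and library total (RPKM), CRK10 led in FMO5-OE with 40.7 RPKM and was second in Col-0 with 18.4 RPKM. CRK2 followed with 26.9 RPKM in FMO5-OE and 16.7 RPKM in Col-0, and CRK3 took rank 3 in FMO5-OE and rank 6, with 15.9 RPKM, in Col-0. CRK19 had 24.8 RPKM in FMO5-OE and, with 19.7 RPKM, the first place in Col-0. In Col-0 the first 7 genes lay between 15.5 and 19.7 RPKM, so that neighbours in that order differ little. CRK4 stood last of the 16 in Col-0, with 1.19 RPKM, and at rank 13 in FMO5-OE, with 5.57 RPKM.

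The other 18 genes stayed under 5 CPM in both libraries, with 206 reads in all in FMO5-OE and 169 in Col-0. CRK26 had 57 reads in FMO5-OE and 35 in Col-0, and CRK14 had 42 in FMO5-OE and 28 in Col-0, both with intervals that span 1. CRK7 had 8 reads in FMO5-OE and 16 in Col-0, and CRK16 had 21 in FMO5-OE and 24 in Col-0. CRK18 had 17 reads in FMO5-OE and 9 in Col-0, CRK15 had 11 in FMO5-OE and 10 in Col-0, and CRK37 had 13 in FMO5-OE and 6 in Col-0. The intervals of these 5 genes also spanned 1. Fewer than 10 reads in each library were found for 10 genes: CRK5, CRK6, CRK8, CRK13, CRK20, CRK23, CRK24, CRK38, CRK39 and CRK45. CRK5, CRK13 and CRK20 are known for roles in defence and cell death, and CRK45 and CRK36 for roles in abscisic acid and osmotic stress responses. CRK5 had 1 read in FMO5-OE and 1 in Col-0, CRK20 had 3 in FMO5-OE and 5 in Col-0, and CRK36 had 17 in FMO5-OE and 18 in Col-0. For the genes with fewer than 10 reads in each library a difference was not detectable at this depth. The ratio of CRK36 was 0.837-fold (0.405 to 1.72), with an interval that spans 1.

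The deposited counts are headed as unique reads, and the share of each model they covered shows how far the count of a gene rests on a part of it. Reads fell on several models, or only on a model numbered above 1, in 5 genes: CRK13, CRK18, CRK21, CRK40 and CRK45. The 69 reads on the main model of CRK21 in FMO5-OE covered 12.1% of it, where an even spread would cover 77.6%, and the 53 on that of CRK40 covered 10.5%, where an even spread would cover 73.8%. The counts of CRK21 and CRK40 thus come from a small part of each model. Between genes, 49-base stretches of CRK22 shared with CRK13 made up 14.4% of CRK22, and its coverage stopped at 83.9% in FMO5-OE and 84.3% in Col-0. Of CRK25, 16.3% lies in reverse in the kinesin gene ATK5, and its coverage was 81.9% in FMO5-OE and 81.7% in Col-0. CRK42 had a like coverage, 83.9% in FMO5-OE and 85.1% in Col-0, with only 1.66% of its stretches shared. Whether the uncovered bases of these genes are the shared ones was not tested. Of the stretches of CRK6, 23.8% occur at another locus, mostly CRK8, and of those of CRK16 33.7%, mostly CRK17, which it overlaps by 1190 bases, so the values of CRK6, CRK8, CRK16 and CRK17 are uncertain. Only 2 of the 34 models had the length of the TAIR10.1 annotation, so these shares are approximate.

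The tandem cluster and the dispersed genes had nearly the same middle value. At 1 CPM or more, 11 cluster genes had a median log2 ratio of 0.24, with 8 above 0, and 12 dispersed genes a median of 0.22, with 9 above 0, beside 49.5% of all nuclear loci. Each set had 1 gene counted as higher, of 7 cluster and 9 dispersed genes at 5 CPM or more, beside 0.748% of all loci. In the cluster it was CRK10, and among the dispersed genes CRK4, which reached 5 CPM only in FMO5-OE. The difference of the medians, cluster minus dispersed, was 0.012 and changed sign between alternatives, from -0.072 to 0.073. The genes of each set share both libraries and are not replicates, so no test was made. Of the 19 cluster genes 12 stayed under 5 CPM, and of the 15 dispersed genes 6 did.

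**Figure D3:**
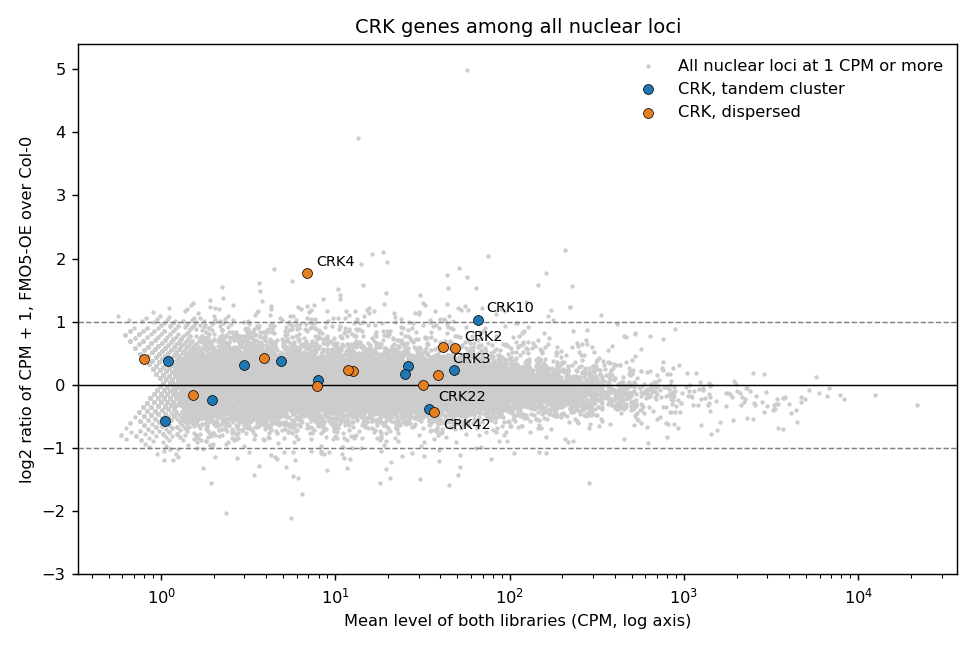
log2 ratio of CPM + 1, FMO5-OE over Col-0 (vertical axis), against the mean level of both libraries in CPM (horizontal axis, logarithmic) for all nuclear loci at 1 CPM or more (grey), with CRK genes of the cluster in blue and dispersed ones in orange. CRK4 and CRK10 lie past the dashed line at 1, and the other CRK genes at 1 CPM or more lie between the dashed lines.

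Within the cluster, which spans 74.2 kb of chromosome 4 from 12117491 to 12191704, most of the summed difference lay in CRK10. The summed level of the cluster was 248 CPM in FMO5-OE and 193 CPM in Col-0, a ratio of 1.29. Without CRK10 it was 160 CPM in FMO5-OE and 150 CPM in Col-0, a ratio of 1.06. CRK10 took 35.5% of cluster reads in FMO5-OE (exact 95% interval 33.8% to 37.3%) and 22.1% in Col-0 (20.3% to 23.9%). CRK22 took 12.0% in FMO5-OE (10.9% to 13.2%) and 20.2% in Col-0 (18.5% to 21.99%). Of the cluster reads CRK10 thus held a larger share in FMO5-OE, and CRK22 a smaller one. The shares reuse the counts given above, and a larger share of CRK10 leaves less for the others. They are thus no separate result.

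Loci beside the cluster members had ratios on both sides of 1. CRK9 (AT4G23170, annotated EP1), which lies next to CRK10 inside the cluster and was not on the list, had 145 reads in FMO5-OE and 132 in Col-0, 0.974-fold (0.764 to 1.24). Of the 16 loci within 50 kb on either side, 9 reached 1 CPM, with a median log2 ratio of -0.075. Of the 6 at 5 CPM or more, 0 were counted as 2-fold apart. AT4G23330, just beyond CRK24, had a log2 ratio of 0.49, above that of each cluster gene but CRK10, and was 1.47-fold higher (1.07 to 2.04). The aquaporin gene PIP1;5 was 0.813-fold (0.775 to 0.853), and the intervals of the other 4 flanking loci at 5 CPM or more spanned 1.

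**Figure D4:**
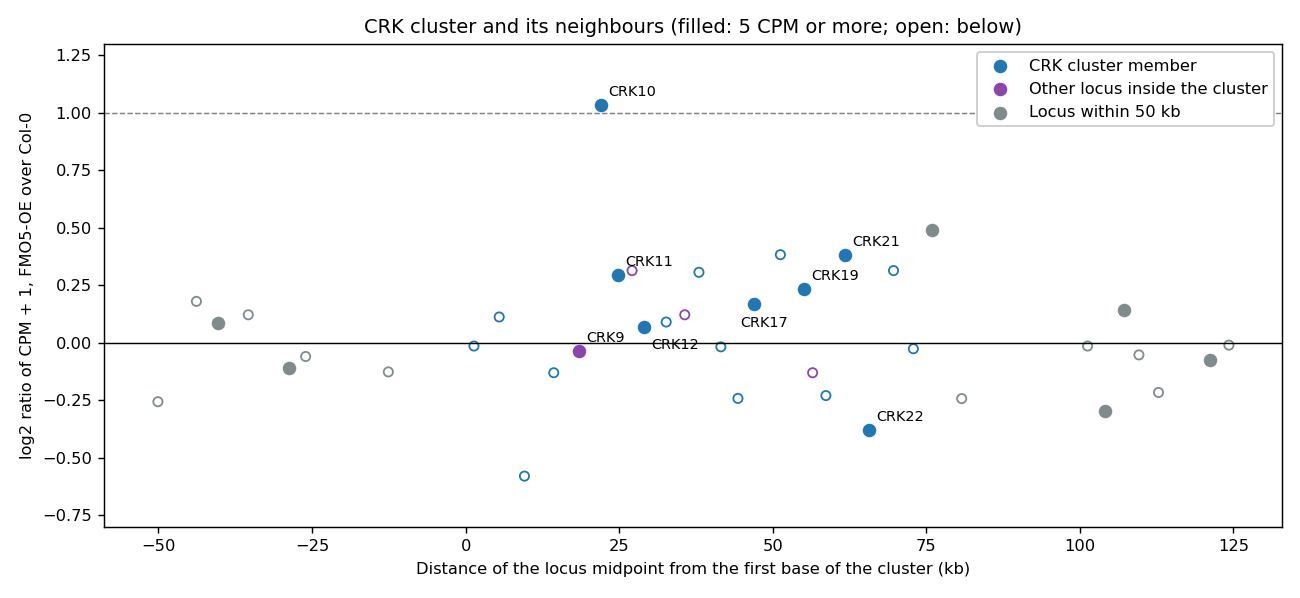
log2 ratio of CPM + 1, FMO5-OE over Col-0 (vertical axis), for the loci of the CRK cluster and within 50 kb of it, by distance in kb from the first base of the cluster (horizontal axis). Filled points reached 5 CPM in a library and open points did not. CRK10 at 1.03 is the only locus past the dashed line at 1, while CRK9 and CRK11 on its sides lie at -0.035 and 0.29.

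The dispersed genes include smaller arrays with their own values. CRK2 and CRK3 summed to 108 CPM in FMO5-OE and 71.4 CPM in Col-0. CRK28 and CRK29 summed to 54.6 CPM in FMO5-OE and 48.0 CPM in Col-0. The 5 genes from CRK36 to CRK40 on chromosome 4 summed to 10.7 CPM in FMO5-OE and 11.1 CPM in Col-0, of which CRK40 gave 7.71 CPM in FMO5-OE and 7.87 CPM in Col-0. CRK4 was counted as higher outside any array.

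Promoters are shown for the 2 genes counted as higher and for CRK11, the neighbour of CRK10. W-boxes, the binding motif of WRKY transcription factors, were searched as TTGACC and TTGACT on both strands in the 250 bases before each annotated gene start, and are in capitals below. The sequences are read 5′ to 3′ towards the gene from TAIR10.1: chr3:16866262-16866511 on the minus strand for CRK4, chr4:12137745-12137994 on the plus strand for CRK10 and chr4:12143859-12144108 on the minus strand for CRK11.
CRK4: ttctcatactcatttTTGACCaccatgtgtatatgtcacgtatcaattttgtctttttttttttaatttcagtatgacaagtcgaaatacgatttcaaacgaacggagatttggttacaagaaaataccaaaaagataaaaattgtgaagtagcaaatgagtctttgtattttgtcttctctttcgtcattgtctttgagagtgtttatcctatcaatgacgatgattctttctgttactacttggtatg
CRK10: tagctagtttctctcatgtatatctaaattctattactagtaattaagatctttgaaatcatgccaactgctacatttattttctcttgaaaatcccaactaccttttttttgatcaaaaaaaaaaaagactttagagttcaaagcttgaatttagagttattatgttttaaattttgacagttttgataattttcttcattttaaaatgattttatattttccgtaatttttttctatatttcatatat
CRK11: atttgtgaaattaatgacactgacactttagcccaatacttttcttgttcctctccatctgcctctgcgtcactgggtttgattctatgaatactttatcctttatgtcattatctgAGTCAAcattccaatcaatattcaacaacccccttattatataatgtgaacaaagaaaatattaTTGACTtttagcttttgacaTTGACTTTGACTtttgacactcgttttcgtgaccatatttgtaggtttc
CRK11 held 4 W-boxes, the most of the 34 genes in this window, CRK4 held 1, and CRK10 held 0. At least 1 W-box was found in 21 of the 34 genes, or 61.8%, with 12 of 19 in the cluster and 9 of 15 outside it. The share among 27443 nuclear protein-coding loci was 28.4%. Of the 21 genes, CRK15, CRK16, CRK24, CRK25 and CRK29 have a window that overlaps another annotated gene. Such windows were kept among all loci too. TGACG, the core bound by TGA factors, searched on both strands and sharing bases with a W-box in CRK23 alone of the 34, was found in 12 of the 34 genes, or 35.3%, against 18.6% of all loci. A match is a description of the sequence and not a bound site. At 1 CPM or more the median log2 ratio of genes with a W-box was 0.20, over 12 genes, and that of genes without one was 0.24, over 11 genes.

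Several WRKY factors of immunity, transcription factors that bind W-boxes, were higher in FMO5-OE. Of 13 listed genes 10 reached 5 CPM, and 4 were counted as higher and 0 as lower, beside 0.748% and 0.343% of all loci. WRKY40 had 330 reads in FMO5-OE and 61 in Col-0, 4.795-fold higher (3.64 to 6.41). WRKY33 was 2.99-fold higher (2.80 to 3.18), WRKY53 2.87-fold (2.14 to 3.90) and WRKY70 2.37-fold (2.12 to 2.65). The median log2 ratio of the 12 at 1 CPM or more was 0.26, with 10 above 0, and that of the 10 at 5 CPM or more was 0.42. WRKY29 was 1.41-fold lower (1.13 to 1.77), the only one of the 12 with its interval below 1, while 5 had theirs above 1. Over all loci at 5 CPM or more, 20.9% lay below 1 and 17.4% above it by their intervals. The 12 also include WRKY11 and WRKY15, which stayed under 5 CPM and had intervals that span 1. WRKY18 had 4 reads in FMO5-OE and 3 in Col-0, too few to compare.

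Receptor complexes and NADPH oxidases, with which some CRKs are known to act, had ratios mostly above 1. All 14 listed genes reached 1 CPM, 13 lay above 0, beside 49.5% of all nuclear loci, and the median log2 ratio was 0.29. The 11 at 5 CPM had a median of 0.19, and 0 of them were counted as 2-fold apart. CPK28 reached 1 CPM only in FMO5-OE, where it is higher, with 21 reads there and 3 in Col-0. The counts over this list are thus a description and support no direction. After RBOHD the largest ratios at 5 CPM were those of SOBIR1, an adaptor kinase, 1.501-fold higher (1.38 to 1.63), and SERK4, a co-receptor, 1.29-fold higher (1.09 to 1.53). The flagellin receptor FLS2 had 411 reads in FMO5-OE and 330 in Col-0, 1.104-fold (0.953 to 1.28). BAK1, at 35 reads in FMO5-OE and 13 in Col-0, was covered over 3.21% of its model in FMO5-OE and 3.17% in Col-0, so its count comes from a small part of the model.

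Genes of salicylic acid synthesis and response had a median log2 ratio of 0.073, with 9 of 16 at 1 CPM or more above 0. Of the 13 at 5 CPM or more, 0 were counted as higher and 1 as lower, beside 0.748% and 0.343% of all loci. The intervals of 6 of the 16 lay above 1 and those of 4, among them ICS1 at under 5 CPM, below it. Over all loci at 5 CPM or more, a higher minimum than that of the 16, these shares were 17.4% and 20.9%. SARD1 and SAG101, with intervals above 1, reached 5 CPM only in FMO5-OE, and ALD1, with its interval below 1, only in Col-0. The gene counted as lower was ALD1, an enzyme of pipecolate synthesis, with 41 reads in FMO5-OE and 88 in Col-0, 2.42-fold lower in FMO5-OE (1.65 to 3.60). NPR3, a salicylic acid receptor, was 1.90-fold higher (1.69 to 2.14), and SARD1, a regulator of salicylic acid synthesis, 2.16-fold higher in CPM (1.39 to 3.42) but short of the rule on CPM + 1. Enzymes of salicylic acid synthesis were lower, with ICS1 2.03-fold lower (1.22 to 3.46) and PBS3 1.69-fold lower (1.29 to 2.23). ICS1 stayed under 5 CPM, with reads on 2 models. On the model with most reads, they covered 4.18% in FMO5-OE and 6.66% in Col-0. FMO1, which acts in pipecolate metabolism, was 1.33-fold lower (1.03 to 1.71). The marker PR1 had 194 reads in FMO5-OE and 160 in Col-0, 1.07-fold (0.867 to 1.33). Markers of the response to microbial patterns had a median of -0.011, with 3 of 6 above 0 and 2 intervals on each side of 1. PHI-1 was 1.54-fold higher (1.31 to 1.81), while NHL10 was 1.35-fold lower (1.14 to 1.60) and AT3G46280 1.35-fold lower (1.16 to 1.56).

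**Figure D5:**
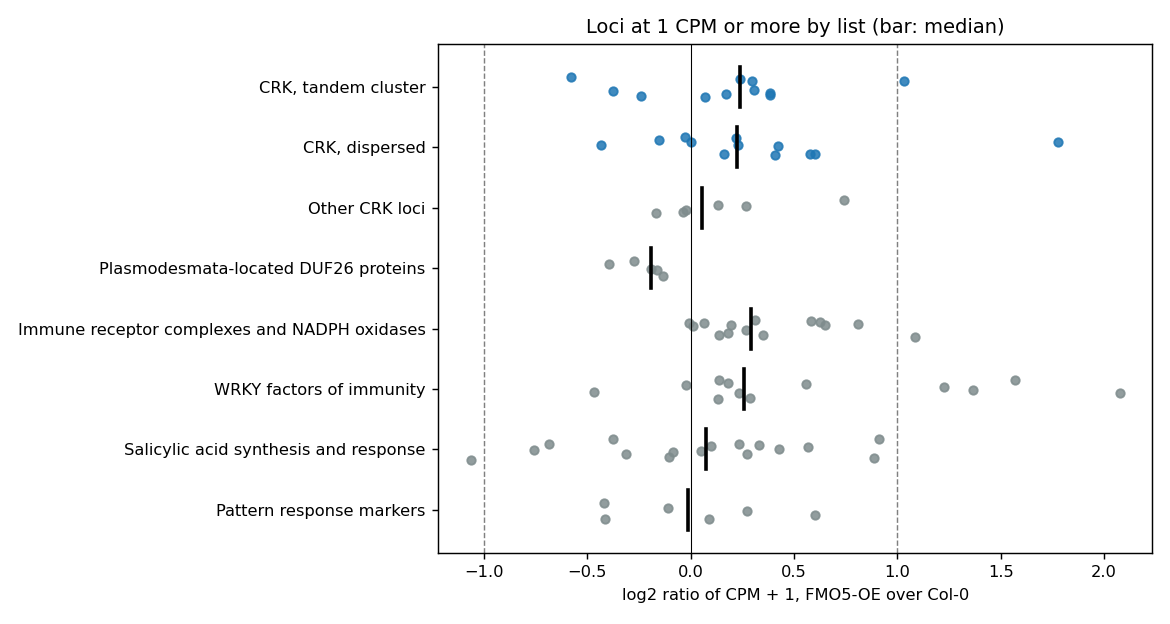
log2 ratio of CPM + 1, FMO5-OE over Col-0 (horizontal axis), of loci at 1 CPM or more in the CRK cluster, the dispersed CRK genes and 6 other lists (rows), each point a locus and each bar the median of its list. The CRK medians are 0.24 and 0.22, those of the receptor complexes 0.29 and of the WRKY factors 0.26, and the plasmodesmata-located proteins lie below 0. At 5 CPM or more the CRK medians are 0.24 for the cluster and 0.22 for the dispersed genes. At that level the receptor complexes have 0.19 and the WRKY factors 0.42. Lectin, leucine-rich repeat and wall-associated kinases are not drawn.

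Relatives that share the DUF26 domain had medians on both sides of 0. Of 11 further CRK loci, 8 had reads and 6 reached 1 CPM, with a median log2 ratio of 0.054 and 3 above 0. Of the 4 at 5 CPM or more, 0 were counted as 2-fold apart. CRK27 had 129 reads in FMO5-OE and 64 in Col-0, 1.79-fold higher (1.31 to 2.45), CRK34 was 1.23-fold higher (0.935 to 1.62), and CRK30 had 250 reads in each library, or 0.886-fold (0.741 to 1.06). Plasmodesmata-located proteins carry DUF26 domains without a kinase and help to control transport between cells. Their median was -0.19, with 0 of 5 above 0, beside 49.5% of all nuclear loci. Of the 5 intervals, 1 lay below 1 and 0 lay above it. PDLP8 was 0.724-fold (0.503 to 1.04), PDLP3 0.873-fold (0.772 to 0.987) and PDLP2 0.889-fold (0.770 to 1.03). Other receptor kinases were chosen by words in the annotated product. At 1 CPM or more, 45 lectin kinases had a median of 0.095, 143 leucine-rich repeat kinases 0.052 and 15 wall-associated kinases 0.19. At 5 CPM or more these 3 families held 28, 119 and 7 genes. Of these, 0 were counted as 2-fold apart, beside 1.09% of all nuclear loci at that level. Differences between the families were not tested.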

How the data were processed

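Total RNA of seedlings was sequenced from 1 FMO5-OE and 1 Col-0 library, per the labels. The deposited values used are whole-number counts, headed as unique reads for each transcript model in the files. Length, covered share and RPKM stand beside them, and RPKM was recomputed from count, length and total for 100% of models within rounding. TAIR10 is the build named in the submitters' processing notes. The sources used here give no aligner, counter or use of strand.

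Counts were summed over the models of a locus, and a model not listed was taken as 0. CPM used TMM factors from edgeR 4.0.16 over 23519 nuclear loci (1.03 for FMO5-OE, 0.970 for Col-0). Size factors of DESeq2 1.42.0 were an alternative. R 4.3.3 and Python 3.11.15 were used, with scipy 1.17.1 for intervals, pandas 2.3.3 and numpy 2.4.6 for tables, and matplotlib 3.10.9 for figures. Log2 ratios have a pseudocount of 1 CPM, which understates the difference of low genes, and folds are ratios of CPM. Intervals are exact Clopper-Pearson at 95% and cover counting error only. RPKM levels use summed counts, the length of the model with most reads and all counted reads. Coordinates and sequences came from TAIR10.1. The members and lists were chosen with earlier results of these data known. All 34 members are named, with folds for those at 5 CPM or more and reads or counts for the others, and from other lists those 2-fold apart or among the 3 largest at 5 CPM. FLS2, BAK1, CPK28, WRKY11, WRKY15, WRKY18, WRKY29, PR1, SAG101, ICS1, PBS3, FMO1, PIP1;5 and AT4G23330 were named after their values were seen.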

Additional observations from a re-analysis of the deposited data

How the results depend on the processing

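No paired analysis was possible because each genotype has a single library. The number of CRK genes counted as higher was 2, and 0 were lower under each alternative run. It was 1 with a pseudocount of 5 CPM or a 3-fold rule, where CRK10 fell short, and 1 at a minimum of 20 CPM, which CRK4 does not reach. The share of nuclear loci counted as higher was then 0.336% with the pseudocount of 5 CPM and 0.13% with the 3-fold rule, and it was 3.43% with a 1.5-fold rule, since larger limits count fewer loci. Under the 1.5-fold rule 3 CRK genes were counted. The median of the CRK genes ran from 0.10 with no minimum to 0.32 with CPM by total count, which moved the median of all nuclear loci to 0.083. It was 0.22 over the 20 genes at 1 CPM or more with reads on a single model numbered 1 alone, and 0.29 over the 17 with under 5% of 49-base stretches shared. Of 122 values of single CRK genes under alternatives, 121 stayed within their counting interval. The exception was CRK4, at a log2 ratio of 1.099 with a pseudocount of 5 CPM. Some alternatives cannot change the value of a gene, such as those on models where it has a single one, and the others reuse the same counts. Staying within the interval is thus no check on the ratios. The log2 ratio of CRK40 turned positive with CPM by total count, at 0.058, and with equal nuclear totals, at 0.052. Depth limited the 18 genes under 5 CPM.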
